A study of Mus musculus with 2 samples.

Results

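Some miRNA genes lie on top of another miRNA gene that is read from the opposite DNA strand. Of the 1973 miRNA genes counted in these libraries, 32 overlapped such a gene by 1 base or more in the GENCODE M21 annotation (mouse build mm10, GRCm38), and these 32 loci are described here. Each locus pairs a counted gene with its opposite-strand partner, and 0 of the 32 partners had a row of their own in the count tables used here. The libraries were small-RNA sequencing of total RNA, of a short labelled size range, from limbs of healthy B6NCrl mouse embryos of mixed sex at embryonic day 13.5. There were 2 biological replicates in 1 group, with no treatment and no second genotype. Both carry the same donor label but are separate tissue samples, each pooled from male and female embryos. The main test pairs the strands of each library, so its p-values rest on how the strand difference varied over these 2 libraries. Estimates of spread are shared across all genes tested. Such p-values say nothing of other litters or strains. Protein-coding limb markers are not counted in miRNA tables, so the tissue label was not checked against them.

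A miRNA is cut from a hairpin in a longer transcript, first by Drosha and then by Dicer, and the mature strand of the resulting duplex guides Argonaute to target RNAs. Targets are chosen mainly by the seed, bases 2 to 8 of the mature miRNA. A hairpin is close to an inverted repeat, so transcription of the other DNA strand can also give RNA that folds into a hairpin, and at some loci both strands have been annotated as miRNA genes. Where mature miRNAs of the opposite strands overlap, they face each other base for base. In long overlaps their seeds fall toward opposite ends of the facing stretch. In short ones, such as that of 11 nt at Mir374b, the seeds can overlap.

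The sequences below, from RefSeq on GRCm38.p6, are mature miRNAs chosen as examples of loci read mainly on the partner's strand, on the counted gene's strand or on both, printed 5′ to 3′ with the seed in capitals. RefSeq mature miRNAs were matched for 23 of the counted genes, 28 of the partners and both strands of 22 loci. The first 10 lines give both arms of 5 partners whose counted gene has a Gm symbol.
mmu-miR-409-5p: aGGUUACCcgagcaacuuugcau
mmu-miR-409-3p: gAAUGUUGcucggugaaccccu
mmu-let-7e-5p: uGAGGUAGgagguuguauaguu
mmu-let-7e-3p: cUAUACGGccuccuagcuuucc
mmu-miR-376a-5p: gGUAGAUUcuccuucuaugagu
mmu-miR-376a-3p: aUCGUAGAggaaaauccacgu
mmu-miR-191-5p: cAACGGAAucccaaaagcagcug
mmu-miR-191-3p: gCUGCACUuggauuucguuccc
mmu-miR-380-5p: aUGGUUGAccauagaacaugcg
mmu-miR-380-3p: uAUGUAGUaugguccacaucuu

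The next lines give facing pairs, 1 mature miRNA from each strand of the same DNA. The strand that held more counts, by the strands of GENCODE M21, comes first. For the pairs at Mir299b, Mir3074-1 and Mir337 that order is not established, since their identifier versions differ.
mmu-miR-299a-5p: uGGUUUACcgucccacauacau
mmu-miR-299b-3p: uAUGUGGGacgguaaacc
mmu-miR-497a-3p: cAAACCACacugugguguuag
mmu-miR-497b: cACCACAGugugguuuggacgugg
mmu-miR-142a-3p: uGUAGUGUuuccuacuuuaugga
mmu-miR-142b: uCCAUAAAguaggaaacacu
mmu-miR-24-3p: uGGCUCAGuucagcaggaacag
mmu-miR-3074-5p: gUUCCUGCugaacugagccagu
mmu-miR-126a-3p: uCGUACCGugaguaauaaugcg
mmu-miR-126b-5p: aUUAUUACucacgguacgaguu
mmu-miR-30e-3p: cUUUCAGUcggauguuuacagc
mmu-miR-30f: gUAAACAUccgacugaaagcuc
mmu-miR-337-3p: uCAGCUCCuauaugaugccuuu
mmu-miR-3544-5p: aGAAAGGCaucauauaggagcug

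Facing mature miRNAs overlapped by 11 to 22 nt (median 20) in 33 pairs, and in 0 of the 33 did the pair share a seed. Of the 52 mature miRNAs of the partners, 49 lay wholly within the counted gene, so their reads fall inside its borders on the other strand. Across the set, 85 distinct mature sequences carried 80 distinct seeds. Among the 5 shared seeds, GAGGUAG is that of let-7e-5p and let-7f-5p, AUGUGGG that of miR-299a-3p and miR-299b-3p, and UGCCUAC that of miR-24-1-5p and miR-24-2-5p.

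**Figure D1:**
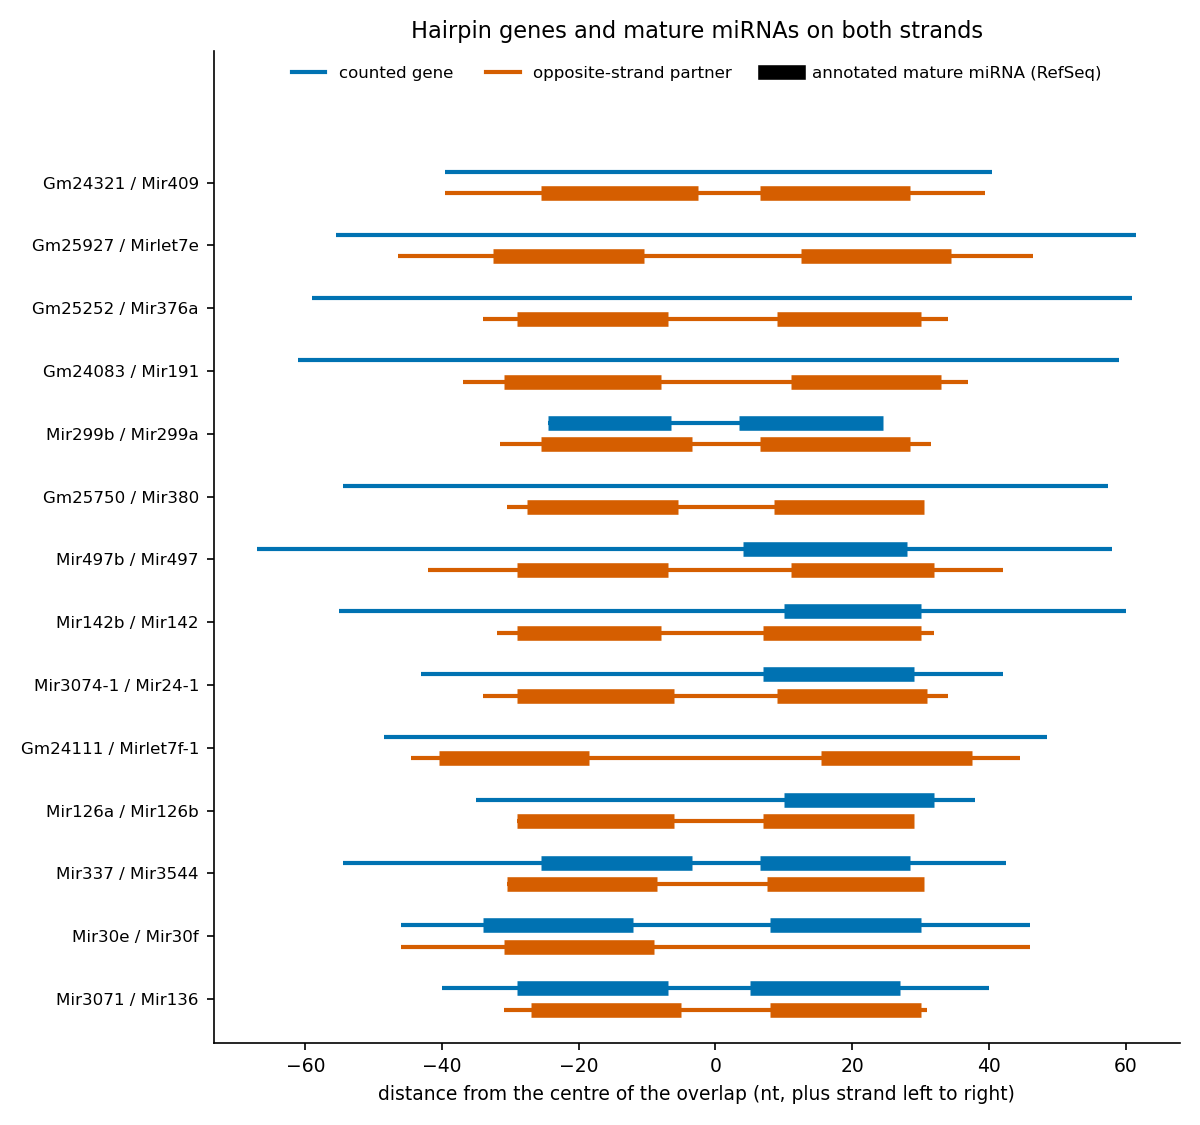
Layout of 14 loci, with each counted gene (blue) above its opposite-strand partner (orange) and thick bars for RefSeq mature miRNAs. The x axis is the distance in nt from the centre of the overlap, plus strand left to right, and the partners' mature miRNAs lie within the counted gene at most loci.

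The loci fell on 13 chromosomes, with 8 on chromosome 12 and 5 on chromosome 11. Overlaps ran from 49 to 93 nt (median 68), and 29 of the 32 partners lay wholly inside the counted gene. Identifiers carried the same version in the count tables and in GENCODE M21 for 28 members. For Mir337, Mir3071, Mir299b and Mir3074-1 the version differed, so the strand that the tables call sense is not established for these 4.

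Replicate 1 held 12407140 reads and replicate 2 held 12657170, of which 5927321 and 6003632 were sense counts in miRNA genes. Levels below are CPM, counts of either strand scaled to 1000000 of those sense counts. A mature miRNA is short enough to be read as a whole, whatever the hairpin's length, so CPM was not divided by length. Whether different miRNAs were captured equally was not tested, so levels and ranks compare reads and not molecules. Reads that map to several places, 30.1% ± 0.914 (SD, n = 2) of all reads, enter no gene, and 1 count per hairpin covers both of its arms. Columns carry no header, and the sense and antisense columns are named from their layout.

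Nearly all antisense counts in these libraries lay at the 32 loci. Antisense counts over all miRNA genes numbered 194161 in replicate 1 and 202556 in replicate 2, and the overlapping set held 99.9% ± 0.00266 of them (SD, n = 2), against 3.88% ± 0.33 of the sense counts. Of the set's own counts 46.2% ± 2.63 were antisense, 44.3% in replicate 1 and 48.0% in replicate 2. The 1941 other genes together had 153 and 152 antisense counts beside 5683387 and 5784581 sense counts, an antisense share of 0.00266% ± 4.55e-05. These other genes include 79 that matched no entry in GENCODE M21, so their overlaps could not be looked up, and the source of the antisense counts outside the set was not tested. The set's antisense counts were concentrated too: its 10 highest members held 99.8% ± 0.0134 of them.

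**Figure D2:**
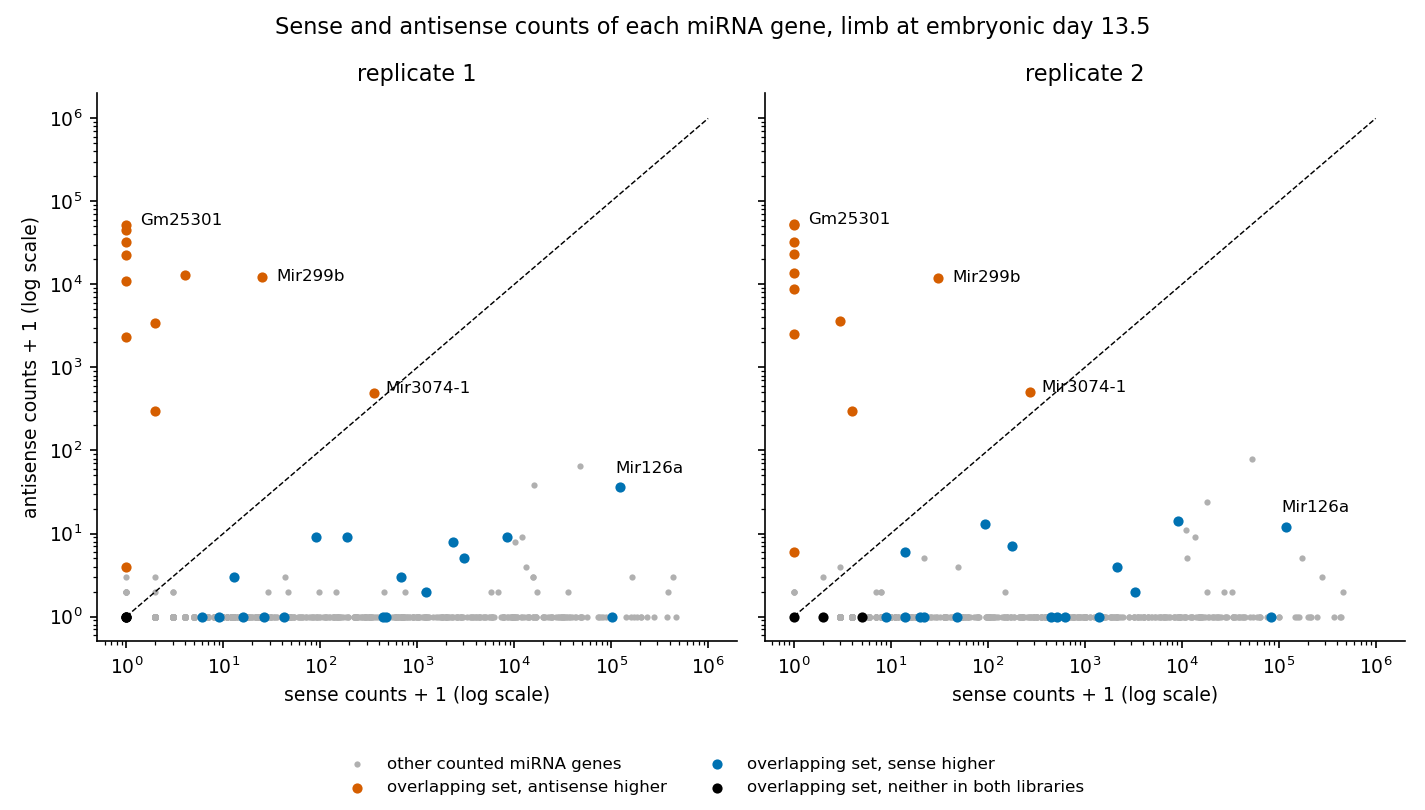
Antisense counts + 1 (y) against sense counts + 1 (x), both on log scales, for each counted miRNA gene in each library, with equality dashed. Members with more antisense counts (orange) sit above the line, up to 51709 and 54075 antisense counts at Gm25301, while most other genes (grey) lie along the bottom.

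The strands were compared at every gene with at least 10 counts of either strand in each library, 26 members among 381 genes, by edgeR's quasi-likelihood test with the library as a block and Benjamini-Hochberg adjustment over all 381. Antisense counts were above sense counts at 11 of the 26 members, or 42.3%, while 2.89% of all genes tested were called so. Since 0 of the 355 other genes tested was called antisense, and all 355 were called sense, the 11 members were the only antisense calls under this test. Sense counts were above antisense counts at 14 members, or 53.8%, against 96.9% of all genes tested. Mir1b was called on neither strand. Counted without a test, the same 11 members had more antisense than sense counts in both libraries (2.89% of the 381 genes), and all 26 had the same higher strand in both. The median log2 ratio of antisense to sense counts was -3.88 over tested members and -9.97 over all genes tested. These values describe the set and are not a test of it.

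In uniquely mapped reads, the loci were close to one-sided. Among the 11 with more antisense counts, 10 had over 99% antisense in both libraries, and 6 had no sense count in either. Among the 15 with more sense counts, 12 had under 1% antisense in both, and 6 had no antisense count. All 7 tested members with a Gm symbol, and 4 of the 19 tested members with a Mir symbol, were on the antisense-higher side.

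**Figure D3:**
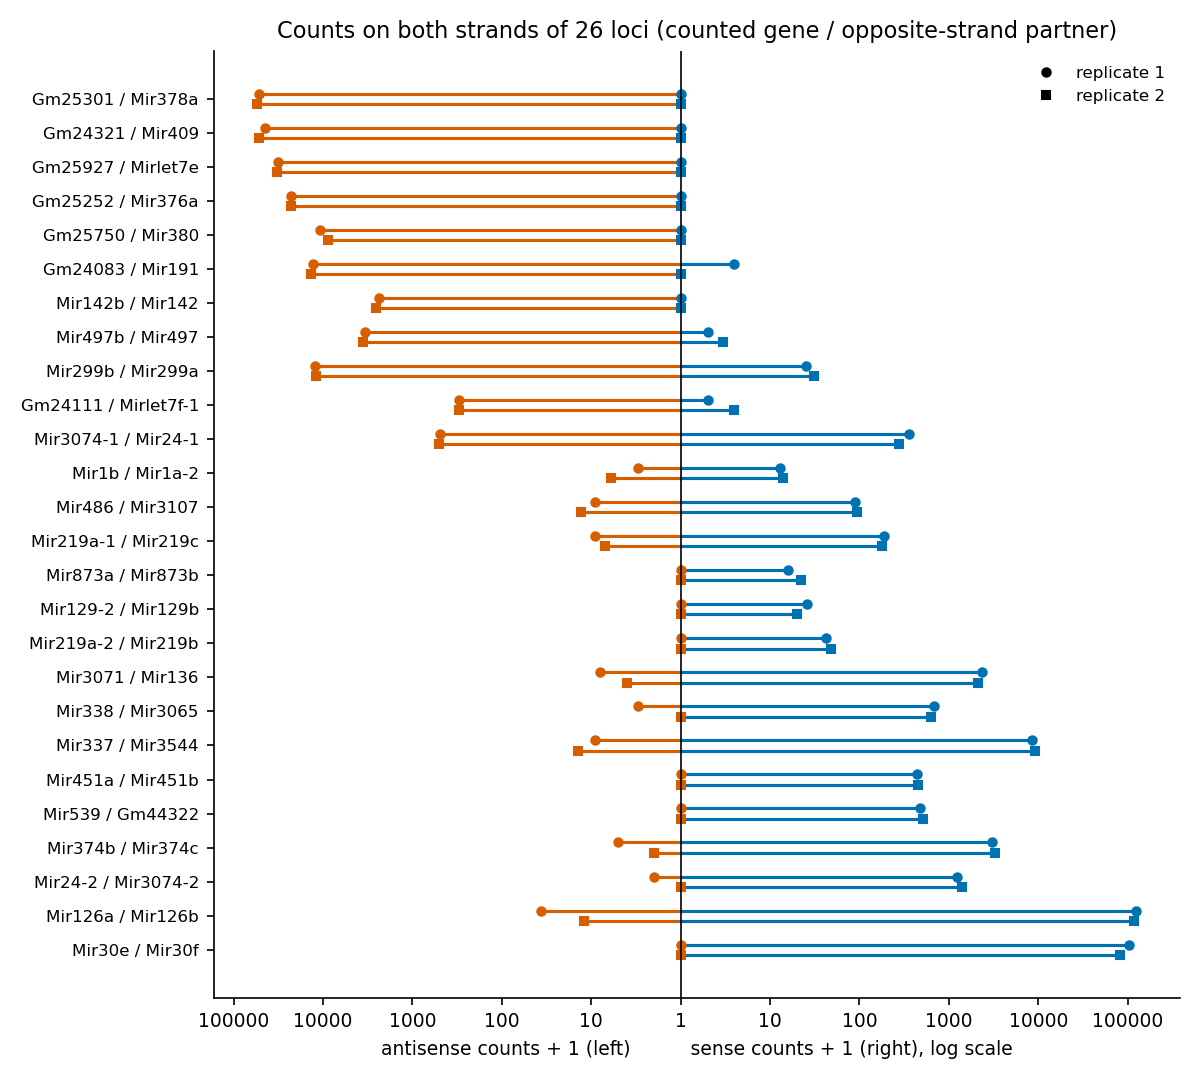
Antisense counts + 1 (orange, left) and sense counts + 1 (blue, right) on a log scale at the 26 tested loci, labelled counted gene / partner, with circles for replicate 1 and squares for replicate 2. The higher strand is the same in both libraries at each locus, and Mir3074-1 / Mir24-1 is the locus with at least 273 counts on each strand.

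The antisense counts of Gm25301 were the highest of the set. It had 51709 antisense counts in replicate 1 and 54075 in replicate 2, and no sense count in either. Against a limit of 3 counts for a count of 0, antisense was at least 17236-fold and 18025-fold higher in the respective libraries. Its partner is Mir378a, in an intron of Ppargc1b, a coactivator gene of mitochondrial energy metabolism. On the partner's strand the level was 8865 ± 200 CPM (SD, n = 2), which would rank 24 among the sense levels of all counted miRNA genes.

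Partners in the imprinted Dlk1-Dio3 region of chromosome 12, whose miRNAs are transcribed from the maternal allele, accounted for 4 of the 11. Chromosome 12 also held 7 of all 26 tested members, of which Mir337, Mir3071 and Mir539 had more sense counts. The 4 include Mir299b, whose sense strand is not established. Gm24321 (chr12:109743158-109743237) had 0 sense counts in both libraries and 44698 and 51519 antisense counts. That is the strand of Mir409, in an intron of the long noncoding RNA Mirg, at 8061 ± 736 CPM. Gm25252 (chr12:109723756-109723875) had no sense count and 22616 and 23069 antisense counts, on the strand of Mir376a, at 3829 ± 19.1 CPM. Both were therefore read on 1 strand in both libraries, and both partners' mature sequences are printed above.

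Gm25750 (chr12:109711779-109711890) had no sense count and 10863 and 8856 antisense counts, on the strand of Mir380, at 1654 ± 253 CPM. Its 2 libraries differed more than those of any other antisense-higher locus, by -0.31 on the log2 CPM scale (replicate 2 over replicate 1), where the median size over the 11 was 0.05. Mir299b (chr12:109710645-109710693) had 24 and 30 sense counts beside 12322 and 11877 antisense counts on the strand of Mir299a, at 2029 ± 71.1 CPM. Antisense counts were 513-fold and 396-fold above sense counts there.

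Over the stretch shared with Mir299a, 89.8% of the bases equal those of its own reverse complement, the highest of the 26 tested loci (median 35.9%). Bases were compared position by position without gaps, so the value depends on where the interval is cut and does not rank symmetry. Mir374b scored lowest, at 20.4%, although both mature miRNAs of its partner occur on both strands there. Both annotated mature miRNAs of Mir299b, 18 and 21 nt long, also occur letter for letter on the opposite strand of the locus. A read of exactly such a sequence fits both strands and so enters no gene, and the 24 and 30 sense counts are what remained after that. How many reads were lost in this way was not tested, and the identifier's version differs from the annotation's.

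The let-7 family times differentiation in many tissues, and its members share the seed GAGGUAG. Gm25927 (chr17:17830343-17830459) had no sense count and 32184 and 32425 antisense counts, on the strand of Mirlet7e in an intron of Spaca6, at 5415 ± 20.4 CPM. Gm24111 (chr13:48537825-48537921) had 1 and 3 sense counts beside 299 antisense counts in each library, on the strand of Mirlet7f-1, at 50.1 ± 0.453 CPM. Its antisense share was 99.7% in replicate 1 (95% exact Clopper-Pearson interval 98.2 to 99.99) and 99.01% in replicate 2 (97.1 to 99.8). Both loci were read on the let-7 strand, at levels far apart. The mature let-7f-5p occurs in 2 annotated miRNA genes, so its reads map to more than 1 place and the level of Mirlet7f-1 rests on what maps uniquely.

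miR-191 is made with miR-425 from 1 transcript in many tissues. Gm24083 (chr9:108568295-108568414) had 3 and 0 sense counts beside 12997 and 13567 antisense counts, on the strand of Mir191 in an exon of 4833445I07Rik, at 2226 ± 47.4 CPM. The antisense share in replicate 1 was above 99.9% (95% exact interval 99.93 to 99.995).

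Mir497b and Mir142b are annotated miRNA genes on the strand opposite a better-known gene, and both were read on the partner's strand. miR-497 has the seed AGCAGCA in its 5′ arm, that of the miR-15 and miR-16 family, which restrains cell-cycle genes. Mir497b (chr11:70234692-70234816) had 1 and 2 sense counts beside 3412 and 3612 antisense counts on the strand of Mir497, at 589 ± 18.4 CPM. Mir142, a miRNA of blood cells, lies opposite Mir142b (chr11:87756841-87756955), which had no sense count and 2337 and 2543 antisense counts, at 409 ± 20.7 CPM. In bulk tissue such as this, a level set by few cells and one set by little RNA per cell cannot be told apart.

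Mir3074-1 (chr13:63301199-63301283) was the 1 tested locus with more than 30 counts on both strands in each library. It had 361 and 273 sense counts beside 493 and 506 antisense counts on the strand of Mir24-1. The antisense share was 57.7% in replicate 1 and 65.0% in replicate 2, and the strands differed by 0.67 on the log2 scale (edgeR adjusted p = 0.0358). DESeq2 did not call it (adjusted p = 0.812), nor did edgeR when at least 100 counts were required, and its identifier is among the 4 whose version differs. Its level was 83.7 ± 0.784 CPM on the Mir24-1 strand and 53.2 ± 10.9 CPM on its own strand.

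This locus lies in an intron of Fancc on the Mir3074-1 strand and touches an exon of 2010111I01Rik on the Mir24-1 strand. The facing mature miRNAs miR-24-3p and miR-3074-5p, printed above, each occur in 2 annotated miRNA genes, here and at Mir24-2. Reads of either that fit both places enter no gene, so the share of each strand at this locus is that of uniquely mapped reads. The sister locus Mir24-2 (chr8:84208815-84208921), whose partner is Mir3074-2, had 1233 and 1391 sense counts and 1 and 0 antisense counts. Sense was thus higher at 1 copy of the pair and both strands were read at the other.

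**Figure D4:**
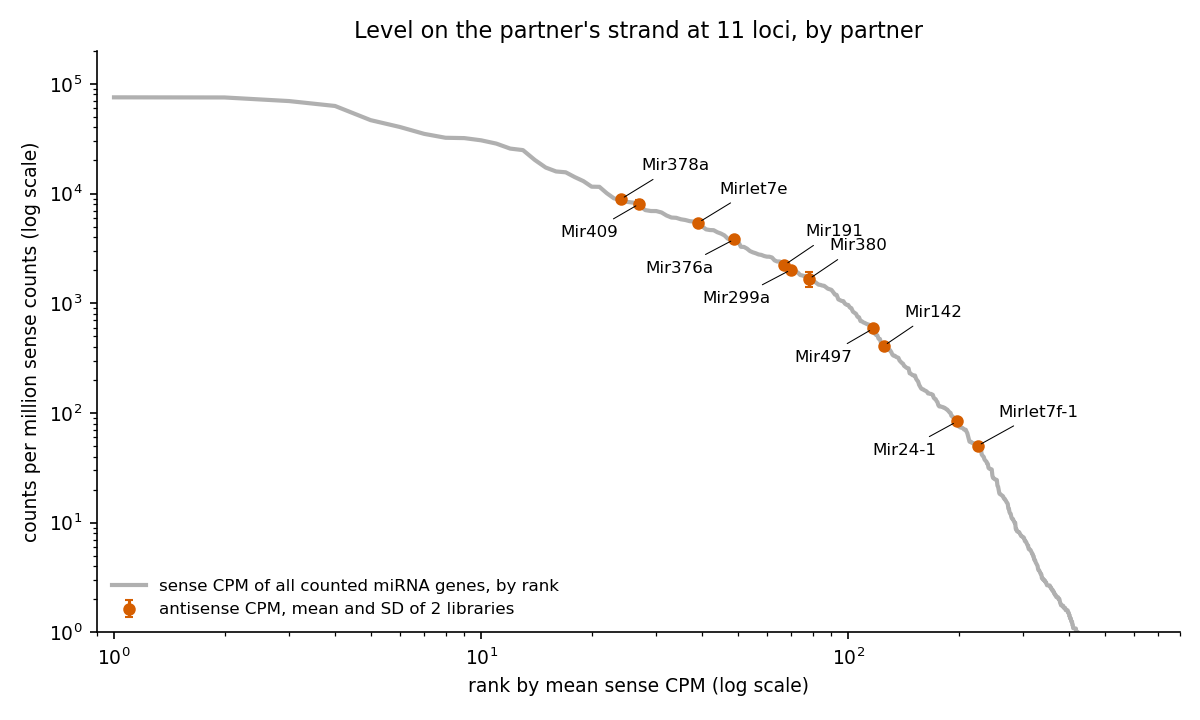
Mean antisense CPM (orange, bars for the SD of 2 libraries) at the 11 antisense-higher loci, labelled by partner and placed by rank on the curve of mean sense CPM of all counted miRNA genes (grey), both axes on log scales. The partner strands run from rank 24 for Mir378a to rank 225 for Mirlet7f-1.

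Read as levels of the partners' strands, the 11 loci ran from 50.1 to 8865 CPM (median 2029). Of the 11, 7 would rank among the 100 highest miRNA genes: Mir378a (24), Mir409 (27), Mirlet7e (39), Mir376a (49), Mir191 (67), Mir299a (70) and Mir380 (78). Mir497 would rank 117, Mir142 125, Mir24-1 198 and Mirlet7f-1 225. The order of the 11 was the same in both libraries, although for Mir380 the rank moved from 73 in replicate 1 to 86 in replicate 2. The ranks of Mir299a and Mir24-1 hold if the Mir299b and Mir3074-1 rows have the strand of GENCODE M21. If those rows were on the other strand, the values would be 4.52 CPM and rank 323 for Mir299a, which leaves 6 partners among the 100 highest, and 53.2 CPM and rank 219 for Mir24-1. Summed over the set, antisense counts came to 33222 ± 695 CPM.

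Neighbouring miRNA genes on the partner's strand, within 10 kb, were used to place these levels, since miRNAs of a cluster are often cut from 1 transcript. Of the 11 partners, 9 had such neighbours, 41 in all and 38 detected. The neighbours themselves had 758213 and 776048 sense counts and 1 antisense count in each library, so nearly all antisense reads of these clusters lay at the overlapped genes. The strand of Mir409 was above all 13 neighbours, of which Mir369 at 5735 ± 175 CPM and Mir382 at 4152 ± 104 CPM were the highest. The strand of Mir376a was above 12 of 15, with Mir487b (12961 ± 283 CPM), Mir381 (4630 ± 77.5 CPM) and Mir382 higher. Mir299a and Mir380 share the same 13 neighbours, of which Mir411 (10056 ± 883 CPM) and Mir379 (4438 ± 412 CPM) were higher than either.

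In the small clusters the partner strand stood beside 1 or 2 genes. Mir191 at 2226 ± 47.4 CPM was above Mir425 at 1085 ± 87.7 CPM. Mir497 at 589 ± 18.4 CPM and Mir195a at 548 ± 10.9 CPM were close, and Mir497 was the higher in both libraries. Mirlet7e lay between Mir99b at 25670 ± 1658 CPM and Mir125a at 3872 ± 426 CPM, its cluster of let-7, miR-99 and miR-125 genes. Mir24-1 was below both Mir23b (34952 ± 1513 CPM) and Mir27b (2908 ± 140 CPM), and Mirlet7f-1 was below both Mirlet7d (6041 ± 869 CPM) and Mirlet7a-1 (91.2 ± 12.1 CPM). For these last 2 partners, a mature arm occurs in 2 annotated genes, as given above. Whether mature miRNAs of the neighbours also occur in several genes was not looked up, so these orders are those of uniquely mapped reads.

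**Figure D5:**
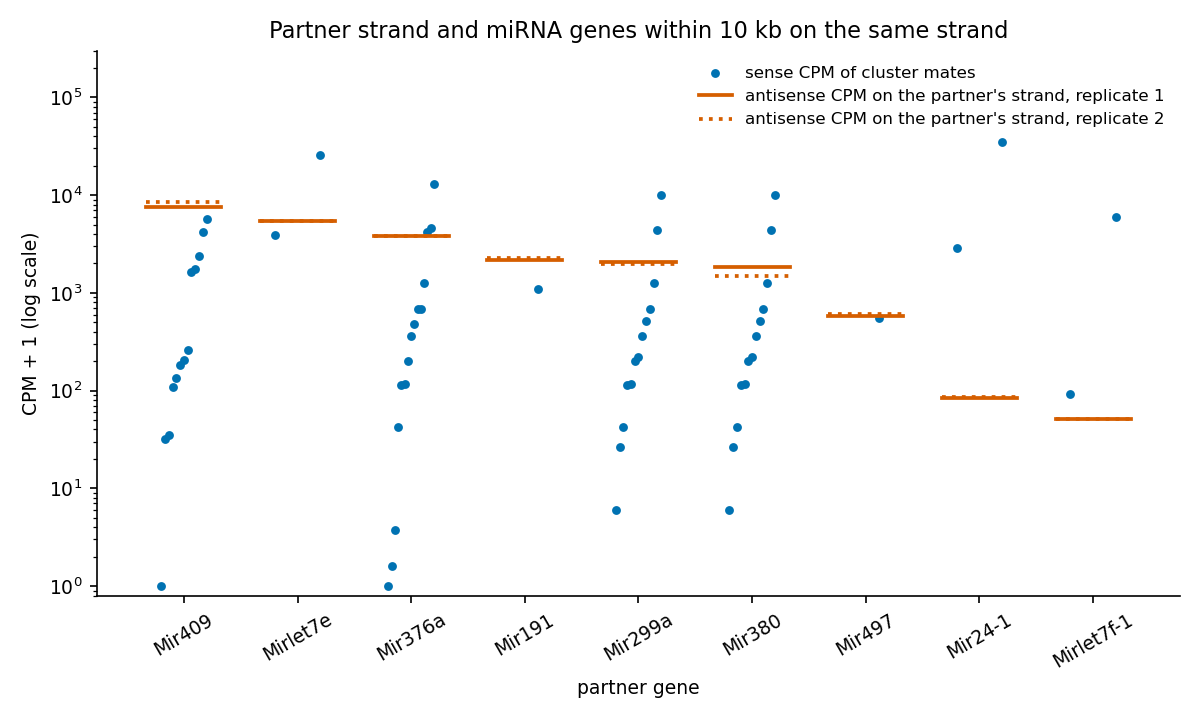
CPM + 1 (log scale) on the partner's strand in each library (orange lines, solid for replicate 1 and dotted for replicate 2) beside the mean sense CPM + 1 of its neighbours within 10 kb on the same strand (blue points), for 9 partners. Mir409 lies above all its neighbours, Mir24-1 and Mirlet7f-1 below theirs.

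At the other 15 tested loci the counted gene itself held more counts. Mir126a (chr2:26591357-26591429) had the most, 123465 and 117892 sense counts against 35 and 11 antisense counts on the strand of Mir126b. miR-126 is a miRNA of endothelial cells and lies within Egfl7, an endothelial gene, and its level was 20233 ± 844 CPM, rank 14. Mir30e (chr4:120772606-120772697), in an intron of Nfyc, had 103039 and 82972 sense counts and no antisense count, so Mir30f was at least 34346-fold and 27657-fold lower. The level of Mir30e was 15602 ± 2520 CPM, rank 17. Both of these abundant hairpins thus gave at most 35 antisense counts in a library.

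Further members on chromosome 12 also had more sense counts. Mir337 (chr12:109585789-109585885) had 8430 and 9103 sense and 8 and 13 antisense counts, the latter on the strand of Mir3544. Mir3071 (chr12:109595318-109595397) had 2320 and 2134 sense and 7 and 3 antisense counts. In GENCODE M21 this row lies on the strand of Rtl1, a retrotransposon-derived imprinted gene of placenta and muscle, and its partner Mir136 lies antisense to Rtl1. For both rows the identifier's version changed between the releases, so the counts belong to 1 strand, but which of the 2 genes that strand holds is not established here. Mir539 (chr12:109728129-109728202) had 479 and 518 sense counts and no antisense count, its partner being Gm44322.

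Mir374b (chrX:103573060-103573154), in an intron of the X-linked noncoding RNA Ftx, had 3071 and 3258 sense and 4 and 1 antisense counts, the latter on the strand of Mir374c. Both mature miRNAs of Mir374c occur on both strands of the locus, as at Mir299b. A read of exactly such a sequence enters no gene, so the low antisense counts are those of uniquely mapped reads. How many reads of Mir374c were lost in this way was not tested. Mir338 (chr11:120014765-120014862), in an intron of the kinase gene Aatk and known from neurons and oligodendrocytes, had 681 and 631 sense and 2 and 0 antisense counts, opposite Mir3065.

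The erythroid miRNA genes Mir451a and Mir486 gave different pictures of the strands. Mir451a (chr11:78073170-78073241), whose hairpin is cut by Argonaute2 and not by Dicer, had 443 and 449 sense counts and no antisense count on the strand of Mir451b. Mir486 (chr8:23142555-23142682), in an intron of the erythrocyte ankyrin gene Ank1, had 89 and 92 sense beside 8 and 12 antisense counts on the strand of Mir3107. Its antisense share was 8.25% and 11.5%, and the strands differed by -3.16 on the log2 scale (edgeR adjusted p = 8.74e-09), a call that DESeq2 did not make (adjusted p = 0.235). Over the stretch shared with Mir3107, 73.3% of the bases equal those of its own reverse complement, compared without gaps, against a median of 35.9% over the tested loci. RefSeq mature miRNAs were not matched on either strand here, so reads that fit both strands were not looked up. These counts and shares are those of uniquely mapped reads.

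A further 4 sense-higher members, Mir219a-1, Mir219a-2, Mir129-2 and Mir873a, had lower counts. Mir219a-1 had 188 and 177 sense and 8 and 6 antisense counts, while Mir219a-2 had 41 and 47 sense counts and no antisense count. Mir129-2 had 25 and 19 sense counts and Mir873a 15 and 21, with no antisense count in either. The mature miR-219a-5p, of both Mir219a genes, and miR-129-5p, of Mir129-2, each occur in 2 annotated miRNA genes. Reads of either that fit both places enter no gene, so the counts of these 3 genes are those of uniquely mapped reads. edgeR called all 4 (adjusted p from 3.25e-18 at Mir219a-1 to 0.000372 at Mir873a), and DESeq2 called none of them (adjusted p from 0.0587 to 0.105).

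Mir1b, opposite the striated-muscle gene Mir1a-2, had 12 and 13 sense and 2 and 5 antisense counts. Sense was higher in both libraries, but the test did not call it (edgeR log2 difference -1.80, adjusted p = 0.0989). The antisense share was 14.3% in replicate 1 (95% exact interval 1.78 to 42.8) and 27.8% in replicate 2 (9.69 to 53.5), so these counts do not settle it. Without the library as a block edgeR called it sense (adjusted p = 0.0203). Mature sequences from RefSeq were not matched for Mir1b or Mir1a-2. Whether reads of either map to more than 1 place, and so enter no gene, was therefore not looked up.

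The 6 members below the count minimum had at most 13 counts on a strand. Mir292 had 8 and 13 sense counts and Mir216b 5 and 8, with no antisense count. Gm25641, opposite the neural gene Mir9-1, had 3 and 5 antisense counts and no sense count. Each mature miRNA of that locus, miR-9 and miR-9b alike, occurs in 3 annotated miRNA genes. Mir3073a had 0 and 4 sense counts, Mir5615-2 had 0 and 1, and Mir290a had none on either strand. Mir290a and Mir292 belong to a cluster known from embryonic stem cells.

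The longer gene around a hairpin, its host, tended to lie on the strand with more counts. Of the 11 antisense-higher loci, 7 had an annotated host on the partner's strand and 1 on the counted gene's strand. Of the 15 sense-higher loci, 11 had a host on the counted gene's strand and 2 on the partner's. Mir3074-1, Mir486 and Mir1b have a host on each strand and so enter both counts of their group. The counts also include Mir3071, through Rtl1, and for it and Mir3074-1 the strand called sense is not established. Hosts were taken from GENCODE M21 and include noncoding genes named after the miRNA itself, such as Mir142hg, so these counts describe the annotation and were not tested.

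The free energy of folding was predicted for both strands with RNAfold on the shared interval. That interval is the whole partner gene at 29 of the 32 loci, but as little as 51.6% of the counted gene. The energies thus often compare a whole partner gene with a part of the counted one. The strand with more counts had the lower free energy at 18 of 26 loci, 8 of the 11 antisense-higher and 10 of the 15 sense-higher. These include the 4 loci whose sense strand is not established. The difference, higher strand minus lower strand, had a median of -2.65 kcal/mol. It ran from -13.9 kcal/mol at the Mirlet7f-1 locus to 5.8 kcal/mol at Mir24-2, where the strand with almost no counts was predicted to fold more stably. The strands of Mir3074-1 differed by 1.8 kcal/mol, with -28.1 on its own strand and -26.3 on that of Mir24-1.

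Outside the set, 44 genes had any antisense count, and 328 of the 355 tested had none. At any depth, 1 gene outside the set had more antisense than sense counts in both libraries. That was Mir8105, below the count minimum, with 2 and 3 antisense beside 1 and 2 sense counts. Mir203, with 64 and 78 antisense counts, and Mir708, with 37 and 23, were named after their values were seen, and held 66.0% and 66.4% of the outside antisense counts in the respective libraries. RefSeq lists an opposite-strand gene, Gm51289, at Mir203 and none at Mir708. Antisense shares at Mir203 were 0.135% and 0.147%, within the range of the sense-higher members.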

How the data were processed

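The authors deposited, for each of 2 limb libraries, whole-number read counts for 1973 miRNA genes on either strand, the sense strand and the antisense strand, after 4 lines of reads in no gene. Reads were placed on mm10, per the labels, and GENCODE M4 is named in the deposited text. Which aligner and counter were used is not given in the sources used here. Unmapped reads were 17.9% ± 0.985 (SD, n = 2). Reads in no gene when the sense strand alone is counted were 4.36% ± 0.17. By the layout of the columns, reads lying only antisense to a gene are among them. The 4 lines stayed out of library sizes and tests. Members were found with GENCODE M21 by identifier without version, and 79 counted genes outside the set matched no entry there. Sense and antisense counts of genes with at least 10 counts in each library were compared with edgeR 4.0.16 in R 4.3.3 (quasi-likelihood test, library as a block, library size the total of both strands, no further scaling, adjusted p under 0.05). The block pairs the strands of 1 library, so pairing comes from the library itself. DESeq2 1.42.0, an exact binomial test, TMM factors and other count minimums were alternatives. The test was tried on simulated data. Ratios on the log2 scale over all genes used 0.5 added counts. Intervals, at 95%, and the limit of 3 counts cover counting error only, since no molecular identifiers are recorded. Folding used RNAfold 2.7.2, and mature sequences are RefSeq's. Every member is accounted for, those past the minimum with their values. Members and lists were chosen with earlier results of these data known.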

Additional observations from a re-analysis of the deposited data

How the results depend on the processing

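With 1 library left out, where no test is possible, 11 members had more antisense counts and 15 to 16 more sense counts, the antisense share of the set was 44.3 to 48.0%, its share of all antisense counts stayed at 99.9%, and its summed level was 32731 to 33714 CPM. Without the replicate block, which pairs the strands of a library, edgeR called 11 members antisense and 15 sense, the added one being Mir1b. DESeq2 called 10 antisense and 9 sense. TMM factors over the 4 columns, which by construction bring the sense and antisense columns to a like level, gave 14 antisense and 2 sense calls, and turned the log2 difference of Mir486 to 5.62, Mir219a-1 to 4.14, Mir3071 to 0.0396 and Mir1b to 6.86. Without Gm25301 the set's antisense share was 38.6%, and it held 73.3% of all antisense counts. The median share over tested members was 6.79%. The summed level was 32153 CPM when scaled to both strands and 15814 when scaled to all reads. With only members of unchanged identifier version, an alternative chosen after seeing the data, 9 were called antisense and 12 sense, with an antisense share of 45.8%, and these held 93.6% of all antisense counts. Depth limits the loci with few counts: where none was counted, the limit of 3 counts equals 0.506 CPM (replicate 1) or 0.4997 CPM (replicate 2).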
